A study of Rattus norvegicus with 2 samples.

Results

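The regions described here are steps in the profile of 8-oxoguanine (8-oxoG) along the chromosomes of normal rat kidney. A step is a pair of adjacent 500 kb fragments whose averaged 8-oxoG levels differ by 0.4 or more on the log2 scale in the mean of 2 arrays, in the same direction on both. Fragments were counted from base 1 of each chromosome on the rat assembly rn4, and both had to hold 15 or more probes. On chromosomes 1 to 20 this rule was met by 523 of 4877 eligible pairs, which is 10.7%. Along the coordinate, 259 of them were rises (5.31%) and 264 were falls (5.41%). The levels of both arrays chose the steps, so their sizes are given as a description and were not tested.

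8-OxoG is guanine oxidised at its eighth position, a common lesion formed by reactive oxygen species. It pairs with adenine as well as with cytosine, and it is removed by base excision repair, which the glycosylase OGG1 starts. Along mammalian chromosomes gene-dense and gene-poor stretches alternate over long distances. Lamina-associated domains, which touch the nuclear envelope, tend to be gene-poor and often have abrupt borders. A step between neighbouring fragments is therefore the place where a change from one kind of domain to another would appear in such a profile.

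DNA from the kidneys of 2 untreated male Wister (Wistar) rats, 5 weeks old, was hybridised on 1 array per rat, and both arrays belong to the same group of normal kidney, with no control group. DNA precipitated with the 8-oxoG antibody N45.1 carried Cy5 and input DNA without precipitation carried Cy3. The dyes were not swapped, so dye and precipitation cannot be told apart, and whole kidney averages over all its cell types. The level of a probe is log2 of IP over input intensity minus the median of its array, so 0 is the median probe and not the absence of 8-oxoG. Of the 235872 probes, 219941 lie on chromosomes 1 to 20, and between 83.1% and 86.9% of the spots were well above background in each channel of each array. The number of arrays limits the precision. An exact permutation test over 2 arrays cannot give a p below 0.5.

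The difference was larger on array 2 in 302 of the 523 steps (57.7%), against 53.8% of the other eligible pairs. Over the 523 steps the difference between the high and the low fragment had a median of 0.49 in the mean of the arrays and ranged from 0.40 to 1.09. On array 1 the median was 0.48, the smallest step was 0.02 and the largest was 1.14. On array 2 the median was 0.56, with a range from 0.05 to 1.30. Some steps thus rest almost entirely on 1 rat, and 244 of the 523 reached 0.4 on each array. The SD of a step between the arrays had a median of 0.16 (n = 2 arrays) and reached 0.82. The standard error from the spread of probes within both fragments had a median of 0.23. Both arrays had the same direction in 66.6% of all 4877 eligible pairs, and the rule required it of the steps. Over these pairs the differences of the arrays had a Pearson's r of 0.48. This is a correlation across positions of the genome that share probes and base composition, not across replicates.

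The number and size of the steps were much smaller in one alternative, which changed several choices together. With median spot intensities corrected by normexp, which adds an offset of 50 to every intensity and here had no dye normalization, only 1 pair met the rule in place of 523. Which of these changes lowered the number was not tested. Adding an offset draws ratios towards 0 by construction. The processed intensities of the main setting had medians between 70.2 and 90.6, but these are not the median spot intensities that normexp corrected. With normexp the differences of all pairs were smaller, with a median size of 0.04 in place of 0.16. The 523 steps had a median of 0.08 (0.13 on array 1 and 0.03 on array 2), and 433 of them kept the same direction on both arrays.

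**Figure D1:**
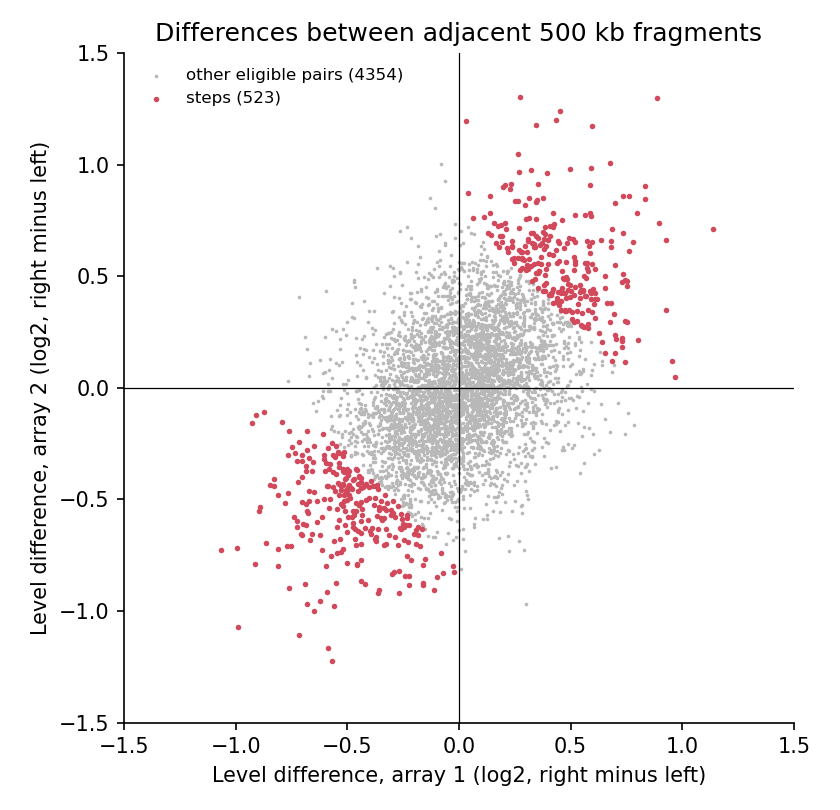
Difference in 8-oxoG level (log2, right minus left fragment) between adjacent 500 kb fragments on array 1 (horizontal) and array 2 (vertical), with 1 point per eligible pair. The 523 steps in red lie outside the diagonal band around 0, on the sides where both arrays have the same sign, and the 4354 other pairs are grey.

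The largest rise lies on chromosome 2 at 63 Mb, between the fragments from 62500001 to 63000000 and from 63000001 to 63500000. The left fragment had levels of -0.27 on array 1 and -0.64 on array 2, over 44 probes. The right fragment had 0.61 and 0.66, over 23 probes. The step was 1.09 ± 0.29 (SD, n = 2), and these same values chose the pair as the largest rise, so they only describe it. Within the low fragment 17 of the 44 probes were below 0 on both arrays and 7 were above 0 on both, whereas in the high fragment 16 of the 23 probes were above 0 on both and 5 were below. Of the probes nearest the border, the one from 62987219 to 62987278 read 0.41 on array 1 and -2.20 on array 2, and the one from 63011452 to 63011511 read 1.45 and 1.59. The high level went on to the right. The next 3 fragments, up to 65 Mb, had mean levels of 0.61, 0.78 and 0.37, each above 0 on both arrays. To the left the fragments from 62 to 62.5 Mb and from 61.5 to 62 Mb had -0.13 and -0.33. This rise is thus followed by a stretch that stayed high over the distance examined.

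The largest fall lies on chromosome 1 at 76 Mb. Its high fragment, from 75500001 to 76000000, had 0.87 on array 1 and 0.93 on array 2, over only 17 probes. Its low fragment, from 76000001 to 76500000, had -0.12 and -0.14 over 61 probes. The step was 1.03 ± 0.06 (SD, n = 2), so the arrays differed by little. In the high fragment 12 of the 17 probes were above 0 on both arrays and 1 was below on both. In the low fragment probes were mixed, with 16 of 61 above 0 on both arrays and 19 below on both. The 3 fragments to the left of the fall had mean levels of 0.28, 0.41 and 0.42, but the nearest of them, with 15 probes, read 0.60 on array 1 and -0.03 on array 2. The 3 fragments after the low one had -0.30, -0.23 and -0.07.

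Among the 8 largest rises the next in size were on chromosome 7 at 16.5 Mb, with 1.14 on array 1 and 0.71 on array 2, and on chromosome 2 at 129 Mb, with 0.60 and 1.17. The remaining 5 lie on chromosome 1 at 54.5 Mb and 124 Mb, chromosome 4 at 84 Mb, chromosome 9 at 43 Mb and chromosome 8 at 95.5 Mb, with steps from 0.82 to 0.87 in the mean. The rise on chromosome 9 differed least between the rats, with 0.83 and 0.84. The rise on chromosome 4 differed most, with 0.45 on array 1 and 1.24 on array 2, and its low fragment held 16 probes.

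Falls were of the same order. After the one on chromosome 1, the largest were on chromosome 11 at 63 Mb (0.72 on array 1 and 1.11 on array 2), chromosome 2 at 51.5 Mb (1.07 and 0.73) and chromosome 18 at 38 Mb (0.57 and 1.22). The remaining 4 of the 8 largest falls lie on chromosome 14 at 77 Mb, chromosome 19 at 13.5 Mb, chromosome 17 at 74.5 Mb and chromosome 4 at 36.5 Mb, with steps between 0.83 and 0.87 in the mean. Of these 16 steps, all but the fall on chromosome 4 met the rule in odd-numbered and in even-numbered probes taken separately. Among all 523 steps, 185 did so (35.4%). Both sets are part of the probes that ranked the steps, so a large step makes this more likely by construction.

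**Figure D2:**
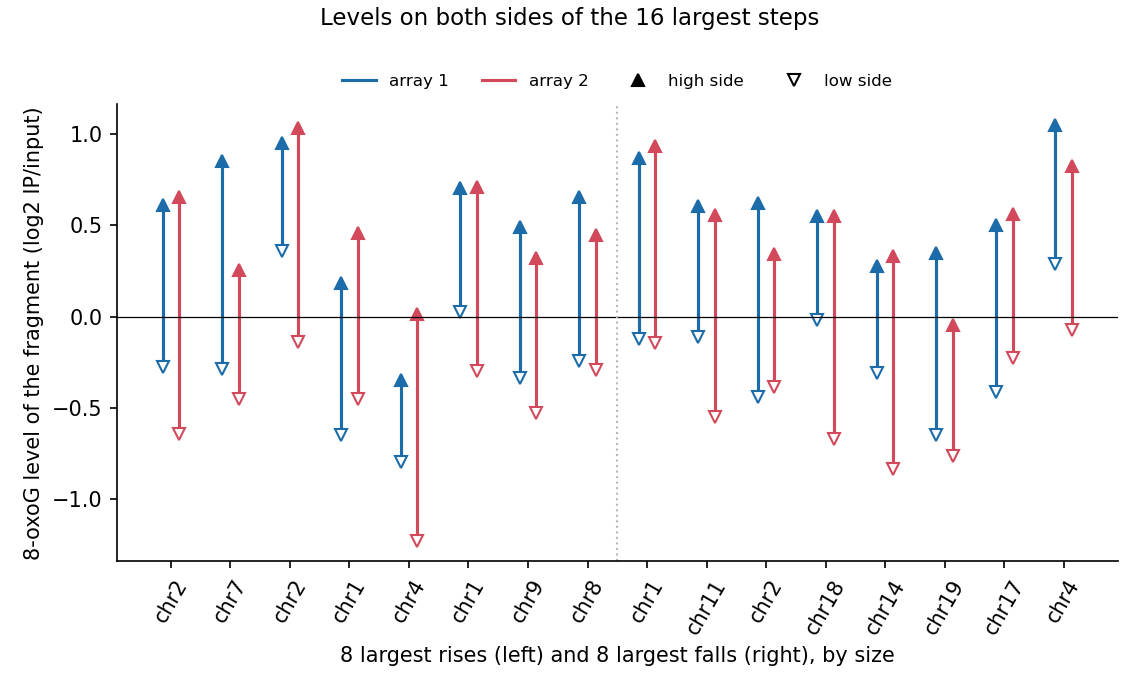
Levels (log2 IP/input, 0 is the median of the array) of the high (filled triangle) and low (open triangle) fragment for the 8 largest rises and the 8 largest falls, with array 1 in blue, array 2 in red and the steps in order of size. High fragments lie above low fragments on both arrays in each of the 16, and the length of the line, which is the step, differs between the arrays most for the rise on chromosome 4 (0.45 and 1.24).

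At the threshold the choice turns on differences far smaller than the spread between the rats. The smallest steps kept were falls on chromosome 2 at 27.5 Mb (0.27 on array 1 and 0.53 on array 2), chromosome 1 at 127.5 Mb (0.17 and 0.63) and chromosome 3 at 123.5 Mb (0.51 and 0.29). Just below the threshold were the fall on chromosome 9 at 25 Mb (0.14 and 0.66), the rise on chromosome 17 at 95 Mb (0.40 and 0.40) and the rise on chromosome 2 at 92.5 Mb (0.70 and 0.10). Another 3 pairs reached 0.4 in the mean but had opposite directions on the arrays, and the largest of them, on chromosome 2 at 162.5 Mb, read -0.08 on array 1 and 1.00 on array 2.

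In the mean of the arrays, 339 of the 523 steps (64.8%) led between a level above the median of the array and a level below it. The high side had a median level of 0.39 on array 1 and 0.28 on array 2, and the low side had -0.12 and -0.27. In 229 of the 523 steps (43.8%) the high fragment was above 0 and the low fragment below 0 on both arrays. Among the other eligible pairs, turned so that the higher fragment counts as the high side, this was so for 4.66%. A larger difference makes a crossing of 0 more likely by construction. By the mean of the arrays, both fragments were above 0 in 128 steps and both below 0 in 56. Steps with both fragments above 0 thus outnumbered those with both below, at 24.5% and 10.7% of the steps. Among the other pairs 32.1% had both fragments above 0 and 50.4% had both below. The same levels chose the steps, so these counts only describe them. High sides also held fewer probes, and the part of probe number in these counts was not tested.

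To read the steps in data that had not chosen them, pairs were chosen on 1 array and read on the other. On array 1 alone, 662 pairs (13.6%) differed by 0.4 or more. On array 2 these pairs, read by the same probes, had a median difference of 0.29 in the direction of array 1, against 0.51 on array 1 itself, and 82.8% had the same direction. Of the pairs not chosen on array 1, 64.0% had the same direction. On array 2 alone, 910 pairs (18.7%) reached 0.4. Read on array 1 they had a median of 0.23, and 81.5% had the same direction, against 63.1% of the pairs not chosen. A difference of 0.4 or more was found on array 2 for 36.9% of the pairs chosen on array 1, against 11.8% of those not chosen. For the pairs chosen on array 2 it was found on array 1 in 26.8%, against 7.66% of those not chosen. Directions were therefore mostly shared between the rats, and sizes were smaller in the array that had not been used.

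The same was done with probes in place of arrays. Probes were numbered along each chromosome, the rule was applied to the odd-numbered probes of both arrays, and the pairs found were read in the even-numbered probes, which are different sequences in the same fragments. The odd-numbered probes gave 979 pairs (20.1%) with a median step of 0.54. In the even-numbered probes the median of these pairs was 0.09, with quartiles of -0.14 and 0.32, and 587 of the 979 had the same direction, against 56.2% of the pairs not chosen. Chosen on the even-numbered probes, 984 pairs (20.2%) had a median of 0.11 in the odd-numbered ones, and 62.0% had the same direction, against 55.6% of those not chosen. Steps were thus shared between different probes of the same fragment less than they were shared between the rats by the same probes. The difference between these shares was not tested, and the number of probes behind a level is smaller in the halved set.

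**Figure D3:**
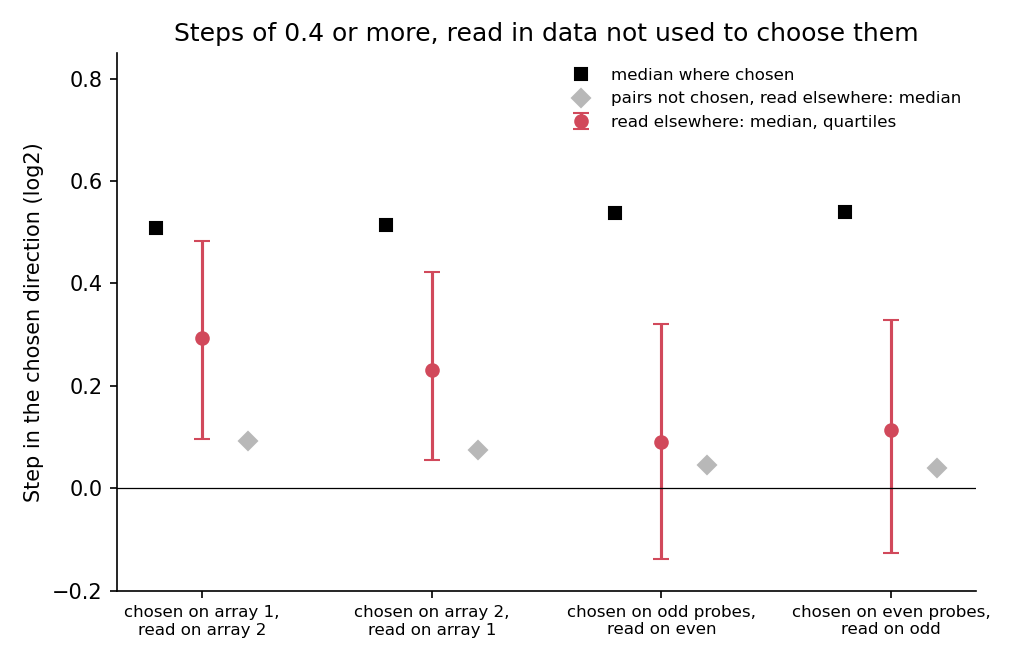
Step in the chosen direction (log2) for pairs of 500 kb fragments that were chosen on 1 array and read on the other, or chosen on odd-numbered or even-numbered probes and read on the remaining probes. Black squares are medians where the pairs were chosen, red points with bars are medians and quartiles where they were read, and grey diamonds are medians of pairs not chosen. Medians fell from 0.51 to 0.29 and 0.23 between arrays, and from 0.54 to 0.09 and 0.11 between probes.

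Of the 523 steps, 185 met the rule in the odd-numbered and in the even-numbered probes, which is 3.79% of the eligible pairs. These 185 had a median step of 0.54 on array 1 and 0.64 on array 2, against 0.45 and 0.51 for the other 338, and 126 of them reached 0.4 on each array. The 185 had to reach 0.4 in each set of probes, and the step averages these same probes. Larger steps among them thus follow from the choice by construction. Of the steps whose sparser fragment held 15 to 19 probes, 39.3% were among the 185. The share was 35.6% with 20 to 29 probes, 30.4% with 30 to 49 and 43.8% with 50 or more, with no order by probe number. For all pairs chosen on one set of probes, the share with the same direction in the other set was lowest in the sparsest class. Where the sparser fragment held 15 to 19 probes, 50.2% of the pairs chosen on one set of probes had the same direction in the other set, against 53.7% of those not chosen. With 20 to 29 probes, 58.6% of the pairs chosen on odd-numbered and 61.4% of those chosen on even-numbered probes had the same direction, against 54.2%. The shares of chosen and other pairs were, with 30 to 49 probes 66.3% and 56.3%, and with 50 or more 65.1% and 58.4%.

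The number of probes also went with the number of steps. Pairs whose sparser fragment held 15 to 19 probes met the rule in 17.9% of cases (56 of 312). The share was 15.7% for 20 to 29 probes (320 of 2037), 7.76% for 30 to 49 (115 of 1482) and 3.06% for 50 or more (32 of 1046). The share of pairs with the same direction on both arrays lay between 64.7% and 67.7% in all 4 classes. The differences themselves were larger in sparse fragments, with a median size of 0.19 at 15 to 19 probes and 0.12 at 50 or more.

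How abruptly the level changed was followed in 100 kb bins around the border. In the last bin of the low fragment the mean level of the steps was -0.02 on array 1 and -0.20 on array 2, and in the first bin of the high fragment it was 0.33 and 0.27. The difference between these adjoining bins was 0.35 on array 1 and 0.47 on array 2, or 79.2% of the difference over all 5 bins of each side in the mean of the arrays. Most of the change therefore lay within 200 kb. However, the levels changed as much at the far edges of the same fragments. From the fifth to the sixth bin the mean of the arrays fell from 0.37 to 0.17 on the high side, and it rose from -0.21 to -0.01 on the low side. Both far edges together amounted to 0.40, against 0.41 at the border. The choice of fragments on a fixed grid produces such edges by construction, so the word sharp applies to neighbouring fragments of this grid and does not give the shape of single borders.

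**Figure D4:**
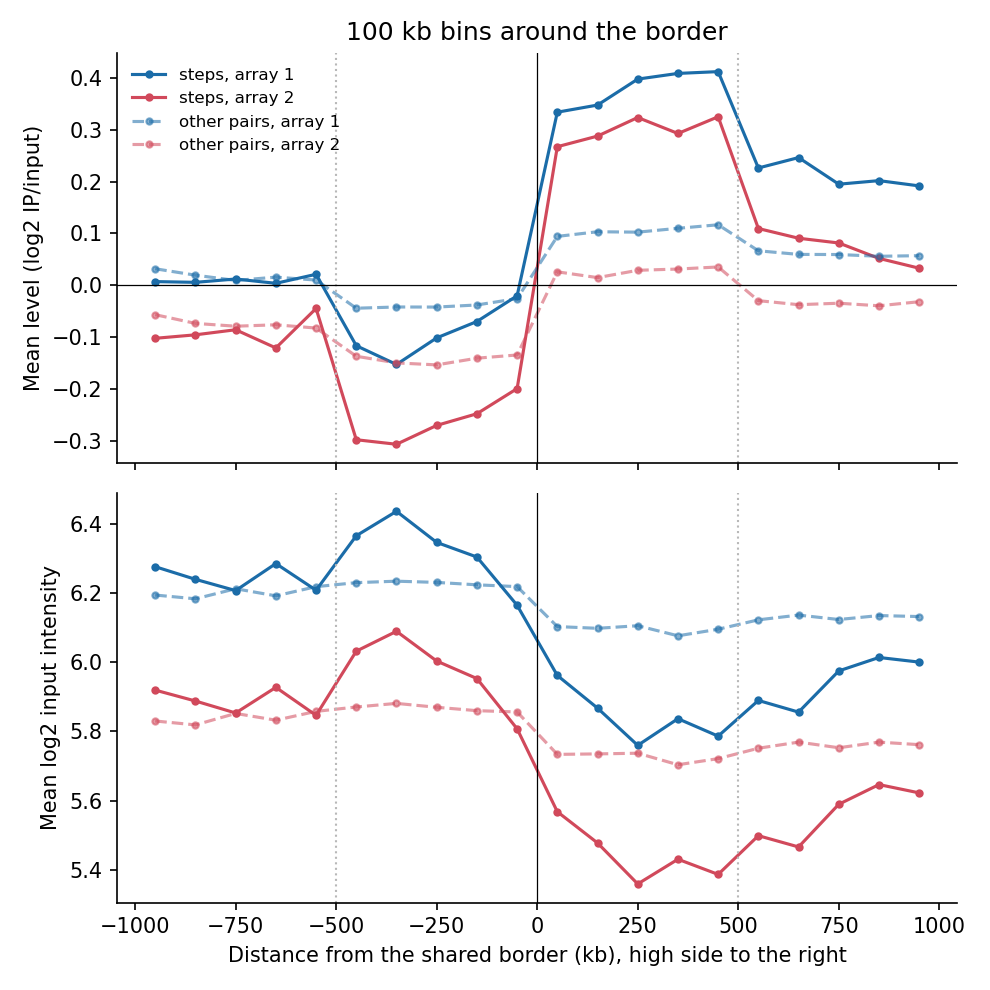
Mean 8-oxoG level (log2 IP/input, upper panel) and mean log2 input intensity (lower panel) in 100 kb bins by distance from the shared border, with the high fragment to the right and dotted lines at the outer ends of the pair. Solid lines are the 523 steps and dashed lines the other eligible pairs, with array 1 in blue and array 2 in red. Levels jump at 0 kb and move back at 500 kb on both sides, and input is lower on the high side.

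Beyond the pair, whose values alone had chosen it, the high side stayed above the low side on average. In the second fragment from the border, the mean level was 0.20 on array 1 and 0.07 on array 2 on the high side, and -0.0031 and -0.10 on the low side. In the sixth fragment, with its centre 2.75 Mb away, it was 0.12 and -0.00073 on the high side and 0.05 and -0.05 on the low side. Some of these fragments are themselves sides of other steps. Averaged over the second and the third fragment, the high side exceeded the low side by a median of 0.17 on array 1 and 0.15 on array 2 over 518 steps. For 4281 other pairs the medians were 0.04 and 0.03. The high side was above the low side on both arrays for 308 of the 518 steps (59.5%), against 41.3% of the other pairs, and below it on both arrays for 98 (18.9%), against 31.0%. Only 122 steps (23.6%) kept a difference of 0.4 or more at this distance, against 8.92% of the other pairs. For the 185 steps that met the rule in both sets of probes the median at this distance was 0.22, and for the remaining steps 0.14.

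**Figure D5:**
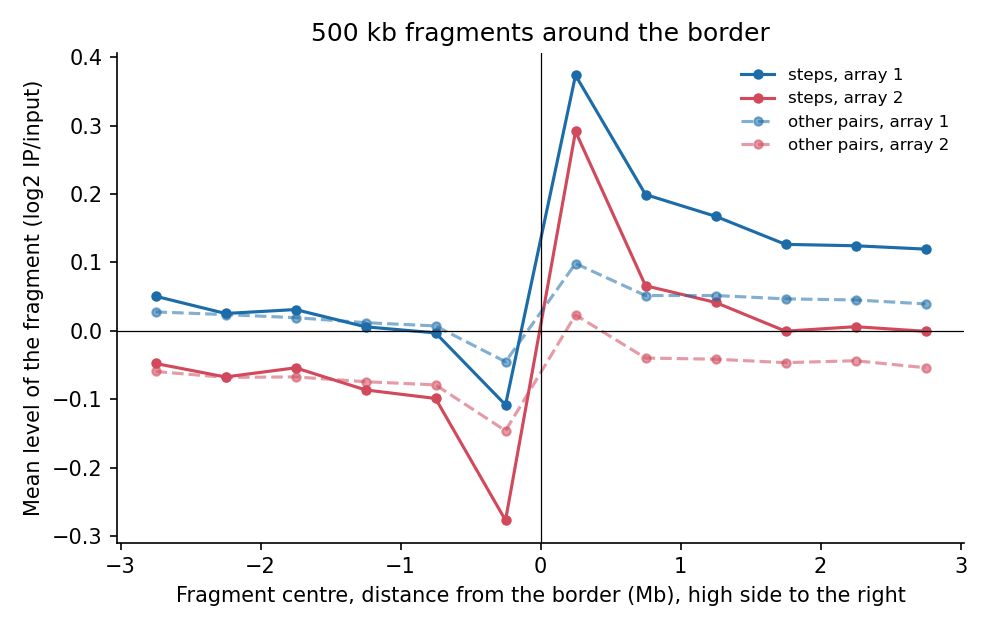
Mean 8-oxoG level (log2 IP/input) of 500 kb fragments by distance of their centre from the border, with the high side to the right. Solid lines are the 523 steps and dashed lines the other eligible pairs, with array 1 in blue and array 2 in red. Levels of the steps are most extreme in the chosen fragments and lie closer to 0 from the second fragment on, where the high side is still above the low side.

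Some steps shared a fragment. Adjacent pairs have a fragment in common, so an extreme fragment gives a rise and a fall by construction. The 523 steps are made of 947 distinct fragments. Of these, 56 were the high side of 2 steps, which makes them isolated peaks 1 fragment wide, and 38 were the low side of 2 steps. Another 5 were the high side of one step and the low side of the next. The high side was the high side of another step too, or the low side the low side of another, in 180 steps, and in the other 343 this was not so. The peaks had mean levels from -0.05 to 0.99, with a median of 0.52 over a median of 23.5 probes. A peak is thus defined by its neighbours, which may be high themselves. The 3 highest were on chromosome 2 from 129000001 to 129500000 (0.95 on array 1 and 1.03 on array 2), chromosome 2 from 7000001 to 7500000 (1.11 and 0.88) and chromosome 4 from 36000001 to 36500000 (1.05 and 0.83), and each holds 21 probes. The troughs had mean levels from -1.01 to 0.33, with a median of -0.33 over a median of 30.5 probes. The 3 lowest were on chromosome 4 from 83500001 to 84000000 (-0.80 and -1.22, 16 probes), chromosome 1 from 138500001 to 139000000 (-0.84 and -0.82, 29 probes) and chromosome 14 from 100000001 to 100500000 (-0.70 and -0.92, 24 probes).

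The high side of a step held fewer probes and had dimmer input than the low side. The median was 26 probes on the high side and 34 on the low side, and 347 of the 523 steps (66.3%) had fewer probes on the high side, against 51.4% of the other pairs. With fragments of 250 kb this share was 47.5%. Mean log2 input intensity was lower on the high side by a median of 0.48 on array 1 and 0.53 on array 2. It was lower on both arrays in 423 steps (80.9%), against 58.0% of the other pairs. The IP intensity did not move one way. Its difference between the high and the low side had a median of -0.0012 on array 1 and 0.01 on array 2. The high side was brighter on both arrays in 223 steps (42.6%) and dimmer on both in 215 (41.1%). Among the other pairs these shares were much the same, at 42.6% and 39.1%. Input is the denominator of the level, so its difference is tied to the choice of the steps, and its part in the result was not tested. Removal of the trend of the level on input intensity left 370 steps, of which 334 were among the 523, and the median step of the 523 was then 0.43. Among the 370 the median input difference was -0.28 in the mean of the arrays, against -0.50 among the 523. The median share of probes well above background was 77.8% on the high side and 79.7% on the low side.

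Probe gaps at the border were wider for the steps by their median, and long gaps made up a like share of both sets of pairs. The interval between the last probe before and the first probe after the border had a median of 20208 bases for the steps and 15624 bases for the other pairs. It exceeded 100 kb for 13 steps (2.49%), against 2.64% of the other pairs.

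By chromosome, the share of eligible pairs that were steps was highest on chromosome 2, with 76 of 489 (15.5%), followed by chromosome 6 with 37 of 285 (13.0%) and chromosome 14 with 25 of 204 (12.3%). It was lowest on chromosome 10, with 12 of 217 (5.53%), chromosome 19, with 7 of 113 (6.19%), and chromosomes 13 and 20, with 7.41% each. Chromosome 2 had a median of 33 probes per fragment and chromosome 10 had 54.5. Fragment levels had an SD of 0.30 on chromosome 2 and 0.19 on chromosome 10. Chromosome 13 had few steps although its fragments had an SD of 0.32. Whether the number of probes accounts for the order of the chromosomes was not tested.

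Steps lay a median of 3 Mb apart. In 99 of 503 intervals the next step was at the next border, and in 155 it was more than 5 Mb away. Among 257 windows of 10 Mb the median was 2 steps, 47 windows held none and 17 held 5 or more. The window with most steps was the beginning of chromosome 2, from 0 to 10 Mb, with 9 of 16 eligible pairs, and the next was chromosome 2 from 60 to 70 Mb, with 8 of 18. In these windows the sparser fragment of a pair held a median of 21 and 22.5 probes. The longest interval without a step ran from 39 to 80.5 Mb of chromosome 8, over 41.5 Mb and 82 eligible pairs. The next was on chromosome 13 from 43 to 74 Mb. These windows and intervals were chosen after their values were seen.

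In the region of chromosome 14 from 50 to 60 Mb, 1 of 15 eligible pairs was a step. It was a rise at 51 Mb, from 0.24 on array 1 and -0.02 on array 2 to 0.86 and 0.38, and no eligible pair in the region was a fall that met the rule. In the region of chromosome 2 that starts at 140 Mb and includes the next 49 eligible pairs, 5 were steps, with rises at 151, 152.5 and 160.5 Mb and falls at 146.5 and 159.5 Mb, between 0.41 and 0.51 in the mean. The fall at 159.5 Mb and the rise at 160.5 Mb enclose a stretch of 1 Mb. In the region of chromosome 2 that ends at 130 Mb and includes the 47 eligible pairs before it, 9 were steps, with 4 rises and 5 falls. The largest were the rise at 129 Mb and the rise at 114 Mb, which was 0.27 on array 1 and 1.30 on array 2. The rise at 114 Mb was followed by a fall at 114.5 Mb (0.46 and 0.79), and the rise at 129 Mb by a fall at 129.5 Mb (0.29 and 0.67). Each rise and fall thus enclose 1 fragment that lay above both neighbours. The fragment after the fall at 129.5 Mb was still high, with 0.67 on array 1 and 0.36 on array 2.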

How the data were processed

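8-OxoG IP DNA (Cy5) and input DNA (Cy3) of 2 kidneys were measured on Agilent Rat Genome CGH arrays. The authors deposited processed intensities of both channels from Feature Extraction 10.5.1.1, with background and spatial trends subtracted and dyes normalized, and intensities before dye normalization. They also deposited a table of log2 values, which equals log2 of processed red over green intensity within 6.2e-15 and is not centred.

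Outlier spots (305) were dropped, spots of a probe were averaged, and levels were averaged over 500 kb fragments by probe start, on rn4. The steps, their comparisons and their alternatives were chosen with earlier results of these data known. Named steps are the 8 largest rises and falls, 3 on each side of the threshold and those in the regions the paper names or enlarges. Fragments shared by 2 steps are given by range, with the 3 most extreme of each kind. Python 3.11.15, numpy 2.4.6, pandas 2.3.3, statsmodels 0.14.6, matplotlib 3.10.9 and, for normexp, limma 3.58.1 in R 4.3.3 were used. Gene annotation, probe sequences and base composition were not used here, so the planned results on them were not run.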

Additional observations from a re-analysis of the deposited data

Results flagged for a closer look

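Chromosome X was outside the rule, which covers chromosomes 1 to 20. The same rule applied to it gave 55 steps among 303 eligible pairs, or 18.2%, against 10.7% on chromosomes 1 to 20, with 29 rises and 26 falls. Their median step was 0.41 on array 1 and 0.64 on array 2. The largest was a fall at 60500000, with 0.41 on array 1 and 1.20 on array 2. Only 33.3% of the 24 probes in its high fragment were well above background, and 62.5% of the 32 in its low fragment. Fragments of chromosome X held a median of 29 probes, against 40 on chromosomes 1 to 20, and a median of 62.5% of their probes was well above background, against 79.5%. Median log2 input intensity was 5.20 on array 1 for chromosome X and 6.26 for chromosomes 1 to 20. On array 2 it was 4.77 and 5.90. Median log2 IP intensity was lower on chromosome X too, with 5.25 against 6.22 on array 1 and 4.63 against 5.84 on array 2. Both rats were male, so chromosome X also differs from chromosomes 1 to 20 in copy number. The part of copy number, probe number and brightness in the higher share was not tested.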

How the results depend on the processing

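Of 103 values under the alternatives, 62 stayed near the value reported, 40 moved and 1 reversed. Counts were called near within a fixed ratio, so 770 steps before dye normalization and 370 with the trend on input removed passed as near 523. The share with fewer probes was near within its exact binomial 95% interval over the steps, which are not replicates. Other values were near within the SD between the arrays or between the sets of probes. Where a value moved, the cause was not tested. The number of steps (523) was 1 with normexp, 193 with 1 Mb fragments, 147 with at least 30 probes, 32 with at least 50 (chosen after seeing the data), 1009 at a threshold of 0.3 and 251 at 0.5, and 662 to 910 with 1 array left out. The median step was 0.42 with normexp, 0.41 and 0.57 at thresholds of 0.3 and 0.5, and 0.51 to 0.51 with 1 array left out. The steps that cross 0 (229) were 1 with normexp, 130 with 1 Mb fragments, 75 with at least 30 probes, 145 at 0.5 and 421 to 633 with 1 array left out. With 1 array left out, no shared direction was required and the crossing of 0 was read on the remaining array only. The counts of steps and of crossings in that setting thus follow a different rule. The share of pairs with the same direction on the array not used (82.2%) was 85.2% before dye normalization, 84.0% with only probes well above background, 75.3% with medians over probes, 78.8% with the trend on input removed and 84.4% with at least 50 probes. Between sets of probes (61.0%) it was 65.3% with at least 50. The difference between the bins at the border (0.41) was 0.0871 with normexp. The share with fewer probes on the high side (66.3%) was 61.8% before dye normalization, 100% with normexp (1 step), 61.0% with the grid moved by 250 kb, 47.5% and 79.3% with 250 kb and 1 Mb fragments, 61.0% at 0.3 and 56.6% to 64.8% with 1 array left out. The median input difference (-0.50) was -0.59 before dye normalization, 1.65 with normexp, where it rests on 1 step, -0.47 with medians, -0.28 with the trend removed, -0.47 with the moved grid, -0.42 and -0.65 with 250 kb and 1 Mb fragments, -0.41 and -0.63 at 0.3 and 0.5, and -0.40 to -0.37 with 1 array left out.

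The steps found depended on the grid and the summary. Moved by 250 kb, the grid gave 554 steps, and 220 of the 523 (42.1%) had one of the same direction 250 kb away. Medians over probes gave 521 steps, of which 315 were among the 523. With only probes well above background, 291 of 492 were. Normexp left no pair chosen on array 2 or on odd-numbered probes, so the shares over both arrays and both sets of probes could not be computed. The alternatives on base composition and gene-named probes were not run. No paired analysis was possible because the rats form 1 group.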

Other observations

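In 11 of the 947 fragments of the steps, fewer than 50% of the probes were well above background, and 13 steps hold such a fragment. The dimmest lies on chromosome 5 from 134000001 to 134500000, where 13.3% of 45 probes were well above background. Its level was -0.11 on array 1 and -0.03 on array 2, and it belongs to 2 steps.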
